A study of Mus musculus with 15 samples.

Results

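The genes described here encode the machinery with which a cell passes through G2 and divides. They were chosen as a list of 41 gene symbols, and every probe set that the platform annotation assigns to them was collected. The annotation gave 92 probe sets for 40 of the 41 genes, of 18193 genes with 1 symbol in the table as a whole, and Ccnb1 was not analysed here. Of the 92 probe sets, 72 reached a group mean signal of 50 in at least 1 group and were tested, and each of the 40 genes had at least 1 of them. Unless another is named, a gene is represented by its tested probe set with the highest mean log2 signal over all arrays, a choice that does not use its change. Signals are therefore compared between groups for 1 gene, and not between genes.

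The cells were primary chondrocytes from long bones of CD1 mouse embryos at embryonic day 15.5, released with collagenase and grown in monolayer, with no sorting step named in the labels. In 4 groups they received an inhibitor dissolved in DMSO, namely LY294002 (against the lipid kinase PI3K), UO126 (against MEK, which activates ERK), SB202190 (listed with the MEK/ERK inhibitors in the series description and usually described as a p38 inhibitor) or trichostatin A (TSA, against histone deacetylases), and in the fifth they received DMSO alone. The 3 kinase inhibitors were used at 10 µM for 24 hours, and the labels of 1 LY294002 and 1 UO126 culture read up to 24 hours. The TSA dose is left out, because the labels give it without a readable unit. RNA was hybridized to Affymetrix Mouse Genome 430 2.0 arrays, 3 per group and 15 in all, each summarized as a MAS5 signal, a linear brightness scaled to the same trimmed mean on every array.

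Chondrocyte identity was checked first. All 12 chondrocyte markers, Col2a1, Acan and Sox9 among them, had a mean signal of at least 50 in each of the 5 groups, against 1 of 6 endothelial markers and 0 of 3 erythroid markers. Of 10 macrophage and leukocyte markers, 4 reached 50 with TSA and 5 in the other groups, and all 8 fibroblast markers and all 3 osteoblast markers with a probe set did in every group. Of 8 skeletal muscle markers, 2 reached 50 with TSA and 8 with DMSO. Arrays of 1 group correlated across tested probe sets with r from 0.967 to 0.981, and the highest r of a TSA array with another group was 0.866. The ratio of the 3' to the 5' probe set, a sign of RNA integrity, ran from 0.854 to 0.963 with TSA and from 0.823 to 0.888 with DMSO for Gapdh. For actin it ran from 1.25 to 1.36 with TSA and from 1.23 to 1.27 with DMSO.

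Genes of G2 and mitosis are transcribed in a late wave of the cell cycle. In resting cells the DREAM complex, built from the MuvB core, the pocket proteins Rbl1 or Rbl2 and E2f4, keeps them silent, and in cycling cells the same core binds Mybl2 and then Foxm1 and switches them on. Their promoters often carry a CHR element near the start site, which MuvB contacts, and CCAAT boxes upstream of it, which bind NF-Y. In the growth plate, chondrocytes of the proliferating columns use these genes and leave the cycle before they enlarge. In a bulk culture, fewer dividing cells and less RNA of these genes per cell cannot be told apart.

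All 40 genes were lower with TSA than with DMSO at an adjusted p under 0.05 (limma, Benjamini-Hochberg over 21765 probe sets), where 26.6% of all tested probe sets were lower. Their log2 changes ran from -2.86 for Ccna2 to -0.44 for Cdc25b with a median of -1.90, beside a median of -0.0128 over all tested probe sets. In 37 of the 40 genes the fall was at least 2-fold, and in 17 it was at least 4-fold, while 8.77% of all tested probe sets fell at least 2-fold. For every one of the 40, the 3 TSA arrays lay below the 3 DMSO arrays, and for 39 they lay below all 12 other arrays, Cdc25b being the exception. The share of all tested probe sets separated in this way was not counted, so these counts only describe the genes. With the kinase inhibitors the numbers of genes past the threshold against DMSO were 1, 1 and 0.

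**Figure D1:**
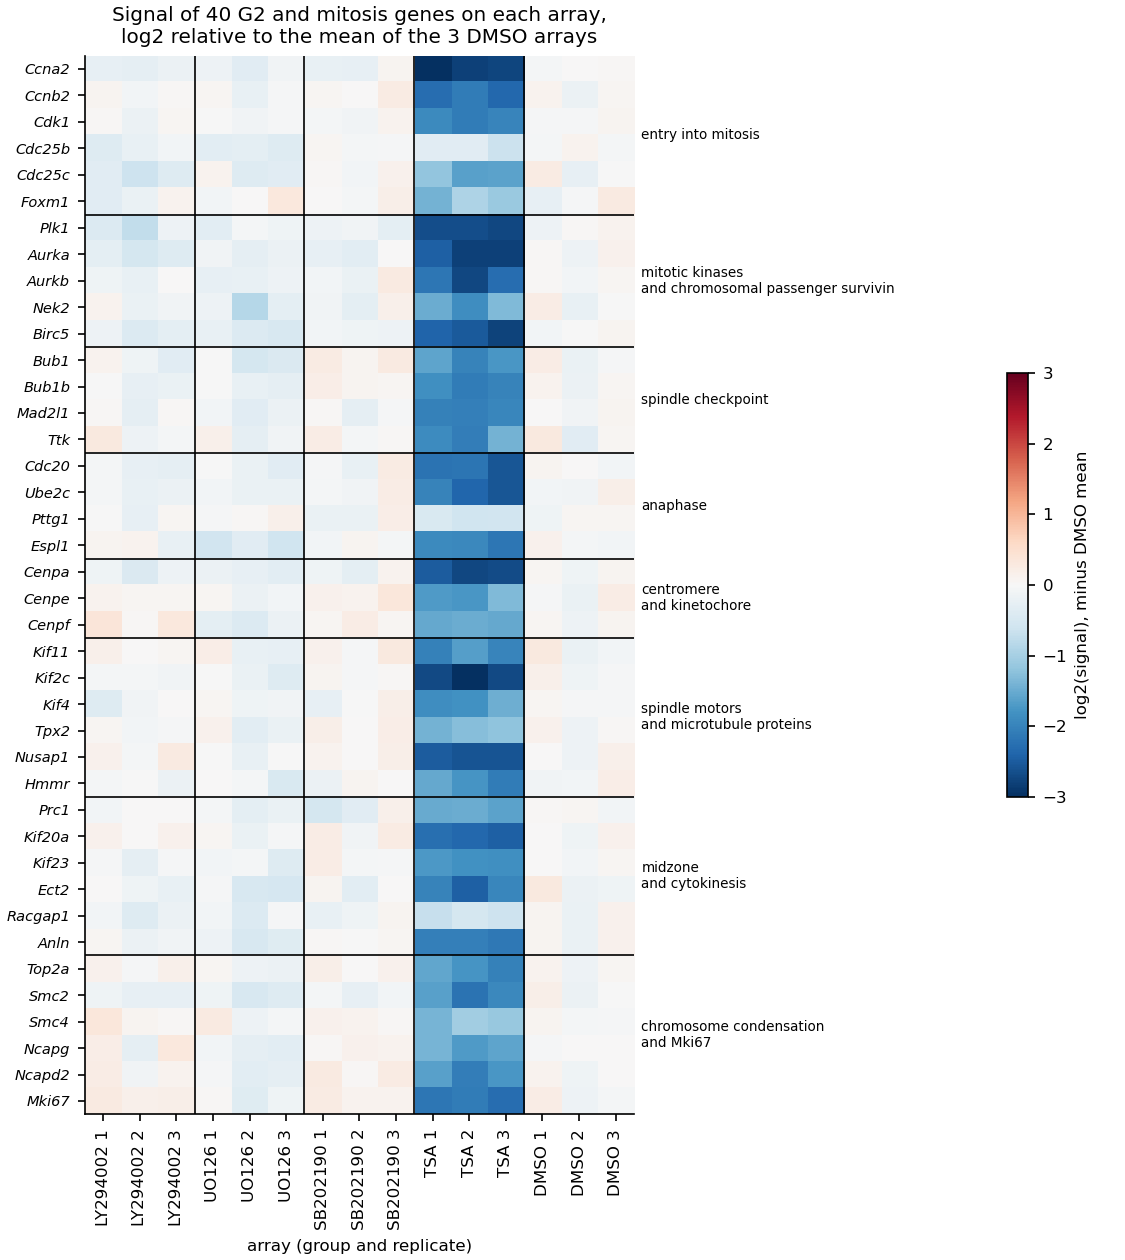
Signal of the 40 genes (rows, grouped by role) on each of the 15 arrays (columns), as log2 of the signal minus the mean log2 of the 3 DMSO arrays. The 3 TSA columns are blue in all 40 rows and palest for Cdc25b, Pttg1 and Racgap1, while the columns of the kinase inhibitors stay near the DMSO columns.

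Promoter windows show what the genes share in sequence. RefSeq windows of 300 bases, 250 before and 50 after the annotated start (build GRCm38.p6), were found for 33 of the 40 genes, and for 27025 genes in all, with the first window taken where a gene had more. The CHR element TTTGAA or its variant TTCGAA, on either strand, occurred in 27 of the 33 windows (81.8%) and in 19.4% of all windows. Between 50 bases before and 50 bases after the start it occurred in 24 of 33 (72.7%), against 5.29% of all windows. The CCAAT box, on either strand, occurred in 27 of 33 windows (81.8%) and in 37.9% of all windows, and 2 or more boxes occurred in 16 of 33 (48.5%) and in 12.2%. A CHR form together with a CCAAT box was present in 25 of 33 (75.8%) and in 7.7% of all windows. The CHR forms cannot match at the same bases as each other and can share only end letters with the CCAAT box, and a match describes the window and does not show that a factor binds it.

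The windows of the 3 genes that fell most with TSA, among those with a window, and of the 3 that fell least are shown, 5′ to 3′ on the strand of the gene, because they allow the motif content to be read beside the size of the fall. Capitals mark the CHR element, its variant and the CCAAT box on either strand, so that TTCAAA stands for the CHR element and ATTGG for the CCAAT box on the opposite strand. Ccnb2 was added, after its sequence was seen, as an example of 3 regularly spaced boxes.
Kif2c (chr4:117178723-117179022, minus strand): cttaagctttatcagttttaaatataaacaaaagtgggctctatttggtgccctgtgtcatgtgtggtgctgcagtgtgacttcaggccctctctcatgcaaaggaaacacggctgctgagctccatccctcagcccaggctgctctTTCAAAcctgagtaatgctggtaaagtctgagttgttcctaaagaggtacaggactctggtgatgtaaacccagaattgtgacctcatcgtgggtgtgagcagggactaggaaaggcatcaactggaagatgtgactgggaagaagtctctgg
Aurka (chr2:172370521-172370820, minus strand): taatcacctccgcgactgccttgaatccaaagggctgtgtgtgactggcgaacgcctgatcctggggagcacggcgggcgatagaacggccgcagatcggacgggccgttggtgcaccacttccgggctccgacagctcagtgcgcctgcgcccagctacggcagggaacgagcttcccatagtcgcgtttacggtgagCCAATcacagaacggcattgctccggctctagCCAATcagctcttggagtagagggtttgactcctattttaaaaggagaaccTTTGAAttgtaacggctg
Plk1 (chr7:122159185-122159484, plus strand): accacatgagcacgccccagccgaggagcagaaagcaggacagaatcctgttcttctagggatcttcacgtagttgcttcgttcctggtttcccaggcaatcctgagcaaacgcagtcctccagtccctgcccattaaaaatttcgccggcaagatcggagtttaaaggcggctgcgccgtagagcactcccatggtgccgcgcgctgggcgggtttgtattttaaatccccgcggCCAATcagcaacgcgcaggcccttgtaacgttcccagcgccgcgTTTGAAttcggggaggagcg
Racgap1 (chr15:99651607-99651906, minus strand): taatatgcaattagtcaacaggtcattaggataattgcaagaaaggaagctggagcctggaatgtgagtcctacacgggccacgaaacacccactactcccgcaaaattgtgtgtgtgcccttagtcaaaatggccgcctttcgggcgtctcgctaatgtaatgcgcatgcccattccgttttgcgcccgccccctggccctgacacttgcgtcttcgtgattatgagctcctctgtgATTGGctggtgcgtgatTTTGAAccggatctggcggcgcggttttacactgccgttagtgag
Pttg1 (chr11:43425932-43426231, minus strand): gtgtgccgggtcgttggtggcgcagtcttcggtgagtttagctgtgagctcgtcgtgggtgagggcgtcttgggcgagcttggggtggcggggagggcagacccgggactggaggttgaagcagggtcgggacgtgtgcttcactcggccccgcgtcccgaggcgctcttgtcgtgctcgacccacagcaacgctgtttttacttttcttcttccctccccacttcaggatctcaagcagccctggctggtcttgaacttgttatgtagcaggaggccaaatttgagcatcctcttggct
Cdc25b (chr2:131186698-131186997, plus strand): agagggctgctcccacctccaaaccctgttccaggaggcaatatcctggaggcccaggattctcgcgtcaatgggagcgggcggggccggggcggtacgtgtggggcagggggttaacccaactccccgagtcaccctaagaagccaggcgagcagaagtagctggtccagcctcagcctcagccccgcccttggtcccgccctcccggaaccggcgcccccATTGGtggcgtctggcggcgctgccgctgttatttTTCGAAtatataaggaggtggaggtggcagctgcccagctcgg
Ccnb2 (chr9:70421505-70421804, minus strand): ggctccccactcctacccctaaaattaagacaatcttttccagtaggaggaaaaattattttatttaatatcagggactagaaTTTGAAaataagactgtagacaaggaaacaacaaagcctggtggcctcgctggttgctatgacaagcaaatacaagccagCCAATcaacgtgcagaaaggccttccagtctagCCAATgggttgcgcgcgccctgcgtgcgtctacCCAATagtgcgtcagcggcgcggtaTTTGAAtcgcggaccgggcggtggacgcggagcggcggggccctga

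In the Ccnb2 window the first bases of the 3 CCAAT boxes lie 87, 54 and 21 bases before the start, 33 bases apart, and a TTTGAA begins 4 bases after it. The Aurka window has CCAAT boxes 51 and 19 bases before the start and a TTTGAA 32 bases after it, and the Plk1 window has a box 14 bases before and a TTTGAA 30 bases after it. Kif2c, with the second largest fall, had a match 103 bases before the start on the opposite strand and no CCAAT box in this window. Among the genes that fell least, Racgap1 and Cdc25b had a CHR form close after the start, at 5 and 7 bases, with a CCAAT box 12 and 28 bases before it, and Pttg1 had neither. The median log2 change with TSA was -1.92 in the 27 genes with a CHR form and -1.80 in the 6 without, given as a description with no test. Birc5, Nusap1, Mad2l1 and Pttg1 had none of the motifs in their window, and Cenpe and Nek2 had CCAAT boxes without a CHR form.

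**Figure D2:**
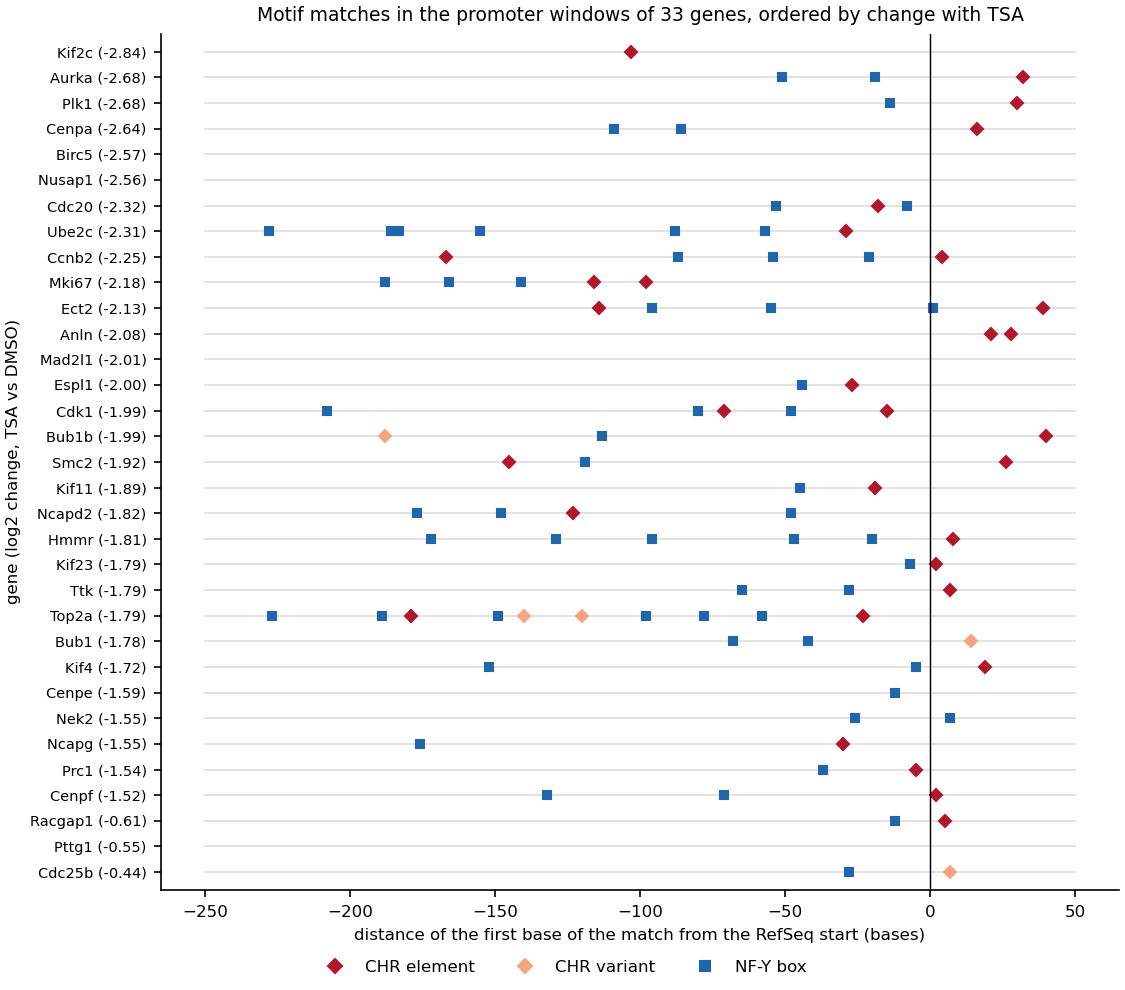
Positions of motif matches in the promoter windows of 33 genes, ordered from the largest fall with TSA at the top to the smallest at the bottom (log2 change in brackets). Red and pale diamonds mark the CHR element and its variant and blue squares the NF-Y (CCAAT) box, plotted by the distance of the first base from the RefSeq start. In 24 of the 33 windows a diamond lies within 50 bases of the start.

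Entry into mitosis is driven by cyclins A and B with their kinase Cdk1, which the Cdc25 phosphatases activate. Cdk1 had signals of 348, 306 and 329 on the TSA arrays, 1145 to 1409 on the 9 arrays of the kinase inhibitors, and 1263, 1274 and 1373 on the DMSO arrays. Its fall with TSA was 3.98-fold (log2 change -1.99 ± 0.086 SE, n = 3 arrays per group, adjusted p = 8.62e-11). Ccna2, the cyclin of S phase and G2, had 125, 144 and 148 with TSA, 790 to 1058 with the kinase inhibitors and 972, 1020 and 1026 with DMSO. By the probe set chosen for each gene, Ccna2 fell 7.25-fold, more than any other of the 40 genes (log2 change -2.86 ± 0.098, adjusted p = 1.19e-11). Its TSA arrays lay below all 12 others. The other tested Ccna2 probe set gave -2.30 ± 0.098 (adjusted p = 7.36e-11). A dimmer Cdc20 probe set gave -4.22 ± 0.46, with a TSA mean of 7.7 that is under the signal minimum. Ccnb2, a partner of Cdk1 in mitosis, fell 4.76-fold and Cdc25c 2.78-fold, to a TSA mean of 48.3 ± 8.6 (SD) that is under the signal minimum, against 134 ± 23.1 with DMSO.

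Of the genes of entry, Cdc25b had the smallest fall, with an interval that did not overlap those of the others. Cdc25b, the phosphatase thought to start Cdk1 activation, had 225, 227 and 181 with TSA, 229, 231 and 217 with UO126, and 273, 308 and 274 with DMSO, so that TSA overlapped UO126 and not DMSO. Its log2 change with TSA was -0.44 ± 0.11 against DMSO (adjusted p = 0.00257). It was -0.21 ± 0.11 against LY294002 (adjusted p = 0.107) and -0.10 ± 0.11 against UO126 (adjusted p = 0.429). Leaving out LY294002 array 1 brought the comparison with LY294002 past the threshold (log2 change -0.29, adjusted p = 0.0479), and centring the arrays on their median did so too (-0.34, adjusted p = 0.0255). Foxm1, the transcription factor that switches on much of this wave, fell 2.23-fold (log2 change -1.16 ± 0.17, adjusted p = 2.39e-05), and its other tested probe sets gave -1.99 and -1.44.

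Of the 8 roles, the mitotic kinases with survivin had the largest median fall, with a median log2 change of -2.57 over 5 genes. Plk1, the polo-like kinase of centrosomes and kinetochores, had 110.5, 110.5 and 104.8 with TSA, 414 to 668 with the kinase inhibitors and 629, 713 and 751 with DMSO, a 6.41-fold fall (log2 change -2.68 ± 0.13, adjusted p = 2.14e-10). Birc5, or survivin, the partner of Aurkb in the chromosomal passenger complex, had 265, 247 and 203 with TSA, 1005 to 1336 with the kinase inhibitors and 1334, 1385 and 1498 with DMSO. It fell 5.93-fold (adjusted p = 4.66e-11). Aurka, the kinase of the spindle poles, fell 6.42-fold and Aurkb 5.23-fold, whereas Nek2, which separates the centrosomes, fell 2.93-fold. The TSA arrays were close to each other in Plk1 and spread from 88.3 to 129 in Nek2.

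The 4 spindle checkpoint genes, which hold cells in metaphase until chromosomes are attached, fell by similar amounts in the chosen probe sets, from 3.44-fold for Bub1 to 4.03-fold for Mad2l1. Mad2l1 had 211, 210 and 222 with TSA, 678 to 891 with the kinase inhibitors and 874, 802 and 922 with DMSO. Bub1b, the BubR1 kinase-like protein, had 107, 89.6 and 96.6 with TSA, 322 to 440.5 with the kinase inhibitors and 418.5, 342 and 403 with DMSO. Its fall was 3.96-fold (adjusted p = 1.05e-09), and that of the kinase Ttk was 3.46-fold. The log2 changes of the 4 genes lay between -2.01 and -1.78, with 95% intervals that overlapped for every pair. Another tested Bub1b probe set gave -2.49 ± 0.17 (adjusted p = 1.07e-08), outside that range.

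At the next step, Cdc20 activates the anaphase-promoting complex, Ube2c supplies it with ubiquitin, and securin (Pttg1) is destroyed to free separase (Espl1). Cdc20 had 356, 362 and 278 with TSA, 1289 to 1936 with the kinase inhibitors and 1747, 1646.5 and 1545 with DMSO, a 4.99-fold fall (log2 change -2.32 ± 0.13, adjusted p = 1.07e-09). Ube2c fell 4.98-fold. Espl1 had 53, 52.5 and 44.7 with TSA and 220, 193 and 189 with DMSO, a 4.01-fold fall (adjusted p = 4.58e-09). Pttg1 stayed high, at 1231, 1127 and 1135 with TSA, against 1431 to 1954 with the kinase inhibitors and 1552, 1776 and 1775 with DMSO. The groups still did not overlap, and the 1.46-fold fall passed the threshold (log2 change -0.55 ± 0.11, adjusted p = 0.000708). Another Pttg1 probe set gave -0.67 ± 0.091 (adjusted p = 1.48e-05).

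**Figure D3:**
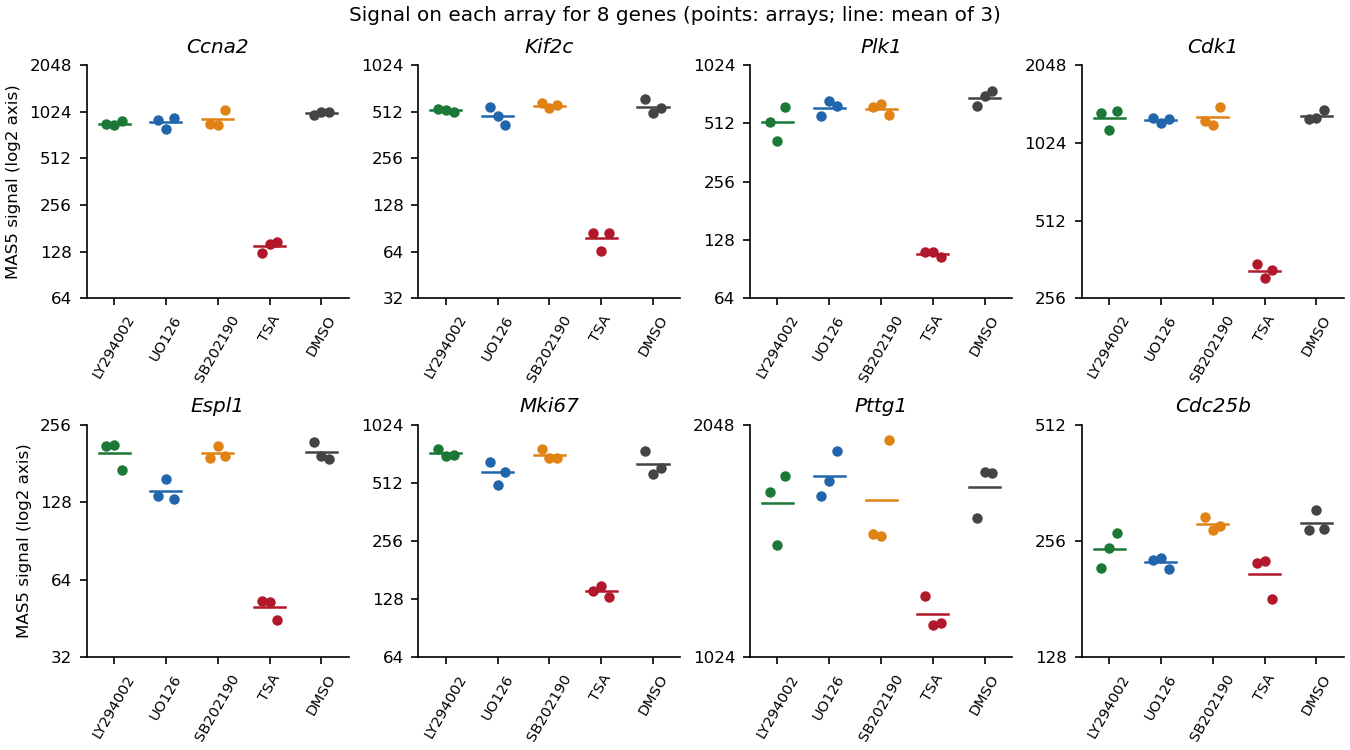
MAS5 signal of 8 genes on each array (points) with the mean of the 3 arrays of a group (line), on log2 axes that differ between panels. TSA arrays lie far below all others in the first 6 panels, close below them in Pttg1, and in Cdc25b 2 of the 3 TSA arrays lie among the UO126 and LY294002 arrays and the third below them.

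Among centromere genes, Cenpa, the histone variant that marks centromeres, had 168, 141 and 146 with TSA, 699 to 1019 with the kinase inhibitors and 974.5, 858 and 1003 with DMSO. Its fall was 6.23-fold (log2 change -2.64 ± 0.11, adjusted p = 8.32e-11). Cenpf, a large kinetochore and nuclear matrix protein, had 102.5, 106 and 104 with TSA, 224 to 386 with the kinase inhibitors and 313, 270 and 316 with DMSO, a 2.87-fold fall (adjusted p = 1.38e-08). The kinetochore motor Cenpe fell 3.02-fold. The 95% intervals of Cenpa (-2.88 to -2.40) and Cenpf (-1.75 to -1.30) did not overlap.

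Of the spindle motors and microtubule proteins, Kif2c, the kinesin that takes microtubules apart at centromeres, had 84.3, 64.3 and 85 with TSA, 422 to 584 with the kinase inhibitors and 617, 504 and 540 with DMSO. It fell 7.14-fold (log2 change -2.84 ± 0.12, adjusted p = 6.88e-11), and its other tested probe sets gave log2 changes of -1.995 and -1.66. Nusap1, which bundles spindle microtubules, had 99, 93.4 and 92.6 with TSA, 481 to 678 with the kinase inhibitors and 563, 502 and 627 with DMSO, a 5.91-fold fall. Hmmr, the hyaluronan receptor that also binds the spindle, had 204, 175 and 138 with TSA, 435 to 635 with the kinase inhibitors and 552, 561 and 683 with DMSO, a 3.5-fold fall. The motors Kif11, which pushes the spindle poles apart, and Kif4, a chromosome motor, fell 3.70-fold and 3.29-fold, and Tpx2, the activator of Aurka, 2.46-fold.

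Genes of the midzone and of cytokinesis fell with a median log2 change of -1.94 over 6 genes. Anln, the scaffold of the contractile ring, had 277, 274 and 260 with TSA, 822 to 1192 with the kinase inhibitors and 1200.5, 994 and 1250 with DMSO, a 4.23-fold fall (adjusted p = 2.62e-10). Prc1, which crosslinks midzone microtubules, had 268, 275 and 250 with TSA, 534.5 to 858 with the kinase inhibitors and 784, 794 and 724 with DMSO, a 2.90-fold fall. Kif20a and Kif23, both midzone kinesins, fell 5.10-fold and 3.46-fold, and Ect2, which acts in cytokinesis, fell 4.39-fold. Racgap1, the partner of Kif23 in the centralspindlin complex, had 298, 332 and 312.5 with TSA and 507, 416 and 527 with DMSO, a 1.53-fold fall (log2 change -0.61 ± 0.13, adjusted p = 0.000642), and another probe set gave -0.64 ± 0.20 (adjusted p = 0.012).

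The last role is chromosome condensation, with the proliferation marker Mki67. Smc4, a condensin ATPase, had 669, 850 and 804 with TSA, 1586 to 2232 with the kinase inhibitors and 1861, 1696 and 1729 with DMSO, a 2.29-fold fall (log2 change -1.19 ± 0.12, adjusted p = 5.01e-07). Top2a, the topoisomerase that untangles chromosomes, had 348, 299 and 252 with TSA, 906 to 1152 with the kinase inhibitors and 1097, 918.5 and 1072 with DMSO, a 3.46-fold fall (adjusted p = 4.06e-09). Smc2, the other ATPase of condensin, fell 3.78-fold. For the chosen probe sets this was more than Smc4 by their intervals (-2.20 to -1.64 for Smc2 and -1.44 to -0.94 for Smc4). Other tested probe sets gave -1.72 ± 0.499 and -2.15 ± 0.355 for Smc2, and -1.255 ± 0.096 and -1.59 ± 0.18 for Smc4. The order of the 2 genes is therefore given for the chosen probe sets only. The condensin subunit Ncapd2 fell 3.52-fold and Ncapg 2.93-fold, to a TSA mean of 47.6 ± 5.09 against 139 ± 3.24 with DMSO. Mki67, which coats mitotic chromosomes, fell 4.52-fold to 141 ± 9.09, against 642 ± 93.7.

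Several probe sets of a gene mostly gave the same direction. Of the 72 tested probe sets, 69 were lower with TSA at an adjusted p under 0.05, where 26.6% of all tested probe sets were. In 68 the TSA arrays lay below the DMSO arrays, a separation that was not counted over all probe sets. The 3 that did not pass were dimmer probe sets of Cenpa (log2 change -0.87 ± 0.46, adjusted p = 0.124), Tpx2 (-0.37 ± 0.25, adjusted p = 0.23) and Ncapd2 (-0.63 ± 0.44, adjusted p = 0.235). Where all probe sets of a gene were averaged, dim ones included, the log2 change moved by over 1.5 times in Kif2c (-1.75), Tpx2 (-0.83) and Anln (-1.17), and in the other direction in Pttg1 (-0.85). The calls against DMSO held for all 40 genes without any 1 of the 6 arrays.

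**Figure D4:**
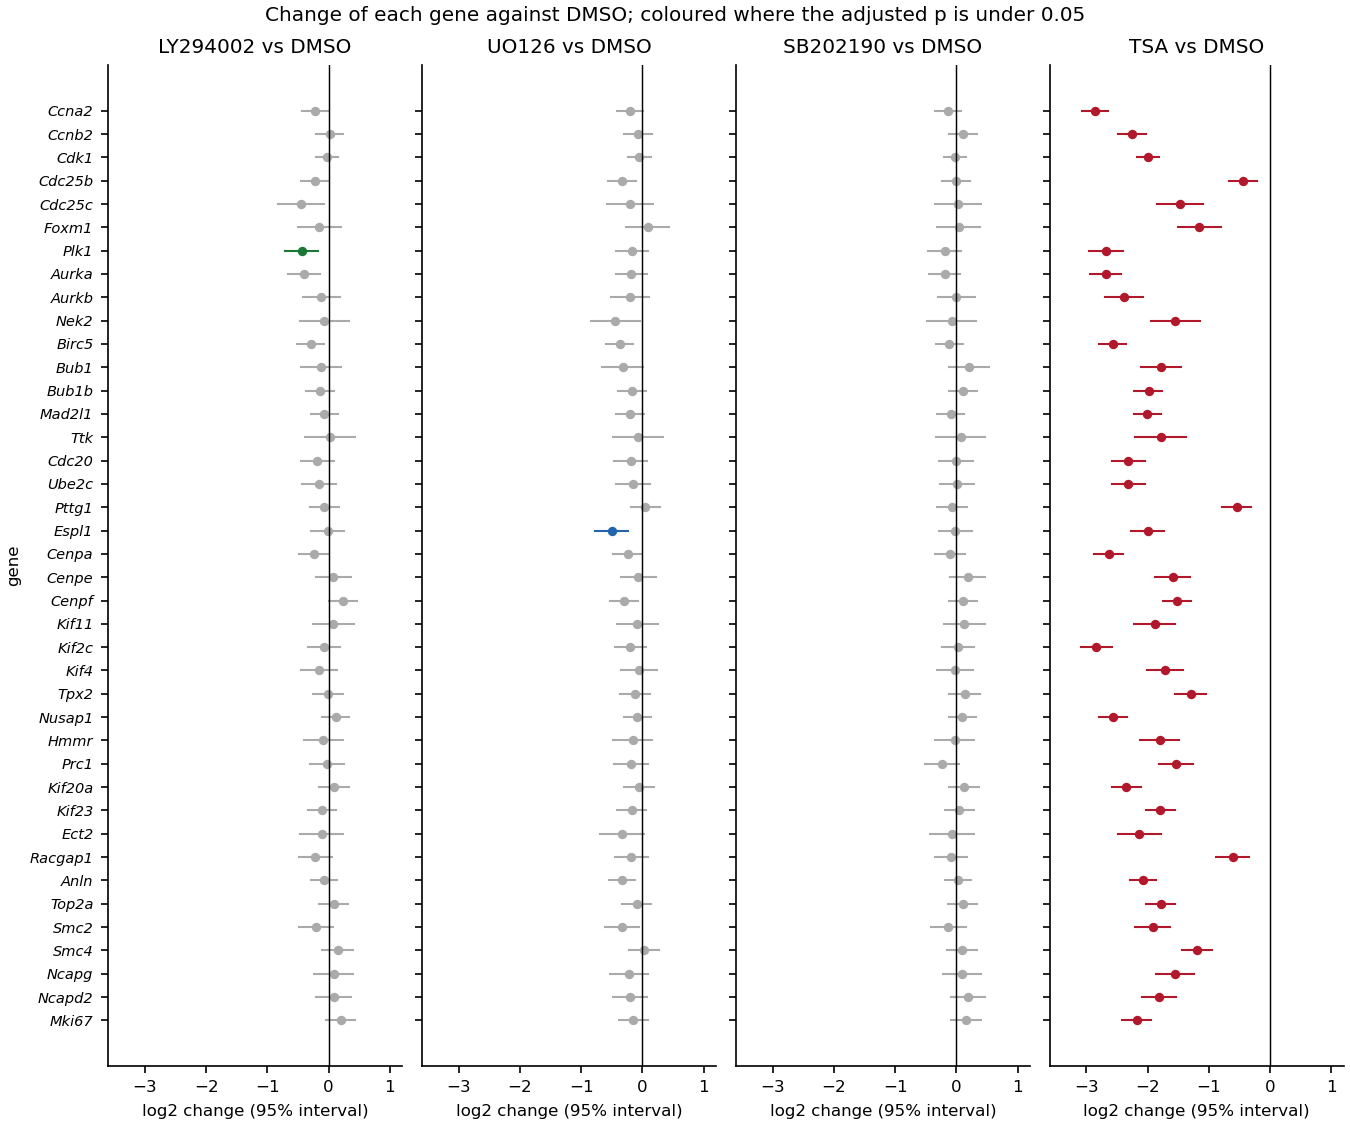
Log2 change of each of the 40 genes against DMSO with its 95% interval, for the 4 inhibitors on the same axis. Coloured points passed the adjusted p of 0.05: 40 genes with TSA, Plk1 with LY294002, Espl1 with UO126 and none with SB202190.

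With LY294002, 1 of the 40 genes passed the threshold against DMSO, where 7.78% of all tested probe sets did. This was Plk1, which had 522, 414 and 624 with LY294002 and 629, 713 and 751 with DMSO. The groups did not overlap, although the highest LY294002 array lay close to the lowest DMSO array (log2 change -0.44 ± 0.13, adjusted p = 0.0432). The call ended without LY294002 array 1 or 2 or DMSO array 2 or 3 (adjusted p 0.093 to 0.164), and its adjusted p ranged from 0.0155 to 0.209 over all alternatives. Aurka lay just outside the threshold (log2 change -0.40 ± 0.12, adjusted p = 0.0539), with 366, 310 and 346 on the LY294002 arrays and 461, 402 and 487 on the DMSO arrays. Another probe set of Cdc20 also passed (log2 change -0.35 ± 0.093, adjusted p = 0.0315), whereas the one chosen for that gene gave -0.19 ± 0.13 (adjusted p = 0.404). Arrays of the same replicate number deviated together in these 2 groups. With the replicate number as a block, 4 genes were lower, Aurka (adjusted p = 0.0155), Plk1 (0.0329), Cdc25c (0.0354) and Birc5 (0.0491), where 14% of all tested probe sets passed.

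As a whole the list stood near DMSO with LY294002. The median log2 change was -0.0756 with 28 of 40 genes below 0, and the mean level over the genes minus that with DMSO was -0.0816 log2 units as deposited and 0.0468 when each array was centred on its median, so no direction is given. The 95% intervals of single genes reached down to -0.823 (Cdc25c) and up to 0.465 (Cenpf), so that a 2-fold change in either direction lay outside the interval of every one of the 40.

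With UO126, 1 gene passed the threshold against DMSO, where 2.68% of all tested probe sets did. Espl1 had 135, 158 and 132 with UO126 and 220, 193 and 189 with DMSO, with no overlap (log2 change -0.50 ± 0.13, adjusted p = 0.0461). Its call ended without UO126 array 1 or 3 or any of the 3 DMSO arrays (adjusted p 0.0812 to 0.172), and its adjusted p ranged from 0.0145 to 0.172 over all alternatives. Without DMSO array 2, Anln passed in its place (log2 change -0.44, adjusted p = 0.037). These groups were also paired by replicate number, and with the replicate block 5 genes were lower, Espl1 (adjusted p = 0.0145), Anln (0.0298), Birc5 (0.0326), Smc2 (0.0331) and Nek2 (0.0494), where 4.74% of all tested probe sets passed.

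Most genes of the list lay slightly below DMSO with UO126. The estimate was negative in 37 of 40 genes, against 5598 of 11751 tested genes with 1 symbol, and the exceptions were Foxm1, Pttg1 and Smc4. The median was -0.182 beside -0.00189 over all tested probe sets. This is not particular to the 40 genes. Estimates were also negative in 63 of 72 further genes of G2 and mitosis (median -0.219) and in 34 of 37 genes of S phase (median -0.207), lists described below. Between arrays of the same number, 31, 34 and 38 of the 40 genes were lower with UO126, with median log2 differences of -0.117, -0.125 and -0.261. The mean level of the list was 8.81 ± 0.11 with UO126 and 8.99 ± 0.095 with DMSO (log2 signal, SD, n = 3), and the difference of -0.182 held its sign under each scaling. The shift is a description without a test, since genes of 1 list are not independent replicates. It had the same sign for each of the 3 numbers, although unpaired arrays of the groups overlapped in this level. In this comparison all 12 chondrocyte markers (median log2 change 0.356, 1 called) and all 3 osteoblast markers (median 0.556, 0 called) had positive estimates. Of the 8 fibroblast markers 5 did. The part of these markers in the shift was not tested.

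With SB202190, 0 of 40 genes passed the threshold in limma against DMSO, where 2.84% of all tested probe sets did. At an unadjusted p of 0.05 the number was also 0, and the share of all tested probe sets at that level was not counted. The median log2 change was 0.0202, with 22 genes above 0 and 18 below. Single-gene intervals reached from -0.506 for Prc1 to 0.536 for Bub1. Prc1 had 534.5, 609 and 858 with SB202190 and 784, 794 and 724 with DMSO, so array 3 stood apart from arrays 1 and 2. Without that array its log2 change was -0.43 (adjusted p = 0.037), against -0.23 with it (adjusted p = 0.413).

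The kinase inhibitors were also set against each other. LY294002 and UO126 differed in 2 of 40 genes, where 6.61% of all tested probe sets passed. Cenpf had 386, 307 and 370 with LY294002 and 243, 224 and 265 with UO126 (log2 change 0.54 ± 0.11, adjusted p = 0.00753), and it was the one call among the kinase inhibitors that held without any 1 array. It ended when all probe sets of the gene were averaged (0.35, adjusted p = 0.436). Espl1 had 211, 214 and 171 with LY294002 and 135, 158 and 132 with UO126 (0.49 ± 0.13, adjusted p = 0.0317), and this call ended without LY294002 array 1 or 2 or UO126 array 1 or 3 (adjusted p 0.0862 to 0.119, range 0.0108 to 0.119 over all alternatives). These 2 groups were paired by number, and with the replicate block Mki67 (adjusted p = 0.0245) and Ncapd2 (0.0386) passed as well, 4 genes in all and higher with LY294002, where 11.6% of all tested probe sets passed.

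UO126 and SB202190 differed in 4 of 40 genes, all lower with UO126, where 8.19% of all tested probe sets passed in either direction and 4.08% were lower. In this comparison 7 of 12 chondrocyte markers (median log2 change 0.66, summed signal 38107 to 50942 with UO126 and 27799 to 31884 with SB202190) and 3 of 3 osteoblast markers (median 1.38, summed signal 2645 to 2909 with UO126 and 841 to 1287 with SB202190) were higher with UO126, and their part in the result was not tested. Espl1 had 135, 158 and 132 with UO126 and 190, 212 and 193 with SB202190 (log2 change -0.49 ± 0.13, adjusted p = 0.0256). Cenpf had 243, 224 and 265 with UO126 and 311, 347 and 312 with SB202190 (-0.41 ± 0.11, adjusted p = 0.0266). Anln (-0.36 ± 0.099, adjusted p = 0.0338) and Bub1 (-0.53 ± 0.16, adjusted p = 0.0493) were the others. Each of the 4 calls ended without SB202190 array 1, 2 or 3, when none of these genes passed, and their adjusted p ranged from 0.00339 to 0.736 over all alternatives. With the replicate block 7 genes were lower with UO126, Bub1b, Ncapd2 and Mki67 being added, where 12% of all tested probe sets passed. These groups fell short of the rule used for pairing. LY294002 and SB202190 differed in 0 of 40 genes in limma, where 6.09% of all tested probe sets passed. At an unadjusted p of 0.05, 2 genes were lower with LY294002, a level at which the share of all tested probe sets was not counted. Without SB202190 array 3, Prc1 was higher with LY294002 (0.41, adjusted p = 0.0275).

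TSA stood below each kinase inhibitor as it did below DMSO. Against LY294002 39 of 40 genes were lower (26.3% of all tested probe sets lower), against UO126 39 of 40 (26.6%), and against SB202190 all 40 (26.1%). The median log2 changes were -1.88, -1.71 and -1.98. The gene that did not pass against LY294002 and UO126 was Cdc25b. Racgap1 lost its call against LY294002 without LY294002 array 1 (log2 change -0.33, adjusted p = 0.0604, against -0.40 and 0.0138 with it). These comparisons share the TSA arrays with each other and with the comparison with DMSO.

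The level of the list on single arrays separated TSA from all other groups. The mean log2 signal over the 40 genes was 7.17, 7.06 and 7.09 on the TSA arrays and lay between 8.72 and 9.10 on the 12 others, with 9.06, 8.88 and 9.04 on the DMSO arrays. In each of the 5 groups, the array numbered 2 had the lowest level of its group, with a deviation from the group mean of -0.0474 log2 units with TSA and -0.109 with DMSO. These differences are small beside the shift of -1.89 with TSA. In each of the 5 groups the array numbered 2 also had the highest median signal over all probe sets, 39.96 with DMSO against 34.01 and 34.66.

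Other genes of the cell cycle were taken from lists that share no gene with the 40. Of 72 tested further genes of G2 and mitosis, 67 were lower and 2 higher with TSA than with DMSO, where 26.6% of all tested probe sets were lower, with a median log2 change of -1.58. Those with the smallest p were Iqgap3, a scaffold of the dividing cell cortex (-2.20 ± 0.11, adjusted p = 2.63e-10), Cdca8, or borealin, of the passenger complex (-1.86 ± 0.10), the mitotic kinase Pbk (-2.31 ± 0.13) and Plk4, the kinase of centriole duplication (-2.30 ± 0.13). The 2 that rose were Cit, the citron kinase of cytokinesis (0.86, adjusted p = 0.00165), and Zwint, a kinetochore protein (0.60, adjusted p = 0.00209), named here after their values were seen. With LY294002 3 of the 72 were lower, where 3.33% of all tested probe sets were, namely Psrc1 (-0.49 ± 0.12, adjusted p = 0.0218), Knl1 (-0.56 ± 0.15, adjusted p = 0.0317) and Spc24 (-0.60 ± 0.18, adjusted p = 0.0482), and with UO126 1 was, where 1.32% of all were, namely Knl1 (-0.77 ± 0.15, adjusted p = 0.00986). Both counts are near the background. Knl1 and Spc24 encode proteins of the outer kinetochore. With SB202190 0 of 72 passed in limma, where 2.84% of all tested probe sets did. Of the 72, 2 reached an unadjusted p of 0.05, a level at which the share of all tested probe sets was not counted.

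Genes of S phase and DNA replication were lower with TSA in 33 of 37 tested cases, against the same 26.6% of all tested probe sets, with a median of -1.09. Thymidine kinase, Tk1, had a mean of 52.2 ± 9.17 with TSA and 776 ± 130 with DMSO (log2 change -3.90 ± 0.15, adjusted p = 3.00e-11). The ribonucleotide reductase subunit Rrm2 (-2.43 ± 0.093) and the helicase subunits Mcm3 (-2.58 ± 0.10) and Mcm5 (-2.55 ± 0.13) followed it in p. With LY294002, UO126 and SB202190 0 of 37 passed the threshold in limma, where 7.78%, 2.68% and 2.84% of all tested probe sets did. At an unadjusted p of 0.05, 7, 9 and 0 were lower. The share of all tested probe sets at that level was not counted, so these numbers are a description.

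The regulators of this wave had 5 higher and 8 lower of 19 tested with TSA, with a median of -0.47. As 54.7% of all tested probe sets passed in either direction with TSA, this count is near the background, and the values of single regulators are given as a description. The activator Mybl2 had a mean of 39.7 ± 10.4 with TSA and 112 ± 10.1 with DMSO (log2 change -1.52 ± 0.17, adjusted p = 2.39e-06). Lin9, a subunit of the MuvB core that both complexes share, had 23.0 ± 4.12 and 99.6 ± 19.2 (-2.11 ± 0.22, adjusted p = 7.68e-07). Both TSA means were under the signal minimum. The E2F repressor E2f8 (-2.23 ± 0.14), the pocket protein Rbl1 (-1.38 ± 0.10, adjusted p = 1.87e-08) and the E2F partner Tfdp1 (-1.13 ± 0.087) also fell. Rb1, the retinoblastoma protein, rose to 805 ± 13.7 with TSA, against 220 ± 45.9 with DMSO (1.89 ± 0.13, adjusted p = 1.28e-08). Rbl2, the pocket protein of resting cells, had 192 ± 10.4 with TSA and 103 ± 9.34 with DMSO (0.90 ± 0.12, adjusted p = 1.26e-05), and also rose with LY294002 (0.42 ± 0.12, adjusted p = 0.0438) and SB202190 (0.58 ± 0.12, adjusted p = 0.0194). The others that rose with TSA, named after their values were seen, were Lin37 (1.05 ± 0.17), Tfdp2 (0.65 ± 0.10) and E2f2 (1.06 ± 0.26). E2f2 had a DMSO mean of 34.6 ± 7.81, under the signal minimum. It reached that minimum only with TSA (mean 71.0), so it was tested only through the group where it is high. Its rise is among the 5 counted and carries no weight as support. E2f4 had 299 ± 2.5 with TSA and 239 ± 36.6 with DMSO (0.34 ± 0.16, adjusted p = 0.0895). With LY294002, Rb1 (0.47 ± 0.13, adjusted p = 0.0414) and Tfdp2 (0.49 ± 0.10, adjusted p = 0.00963) also rose. In all, 3 of 19 were higher and 0 lower with LY294002, where 7.78% of all tested probe sets passed in either direction. At an unadjusted p of 0.05, 4 were higher and 5 lower, E2f4 (-0.42 ± 0.16, adjusted p = 0.121) being among the lower.

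Of 10 D cyclins and CDK inhibitors, which act earlier in the cycle, 2 were higher and 5 lower with TSA, a count also near the 54.7% of all tested probe sets that passed. Ccnd1, the cyclin that answers growth factors, had 638 ± 36.4 with TSA and 1905 ± 160 with DMSO (log2 change -1.58 ± 0.092, adjusted p = 1.95e-09). Ccnd3 (-0.36 ± 0.079), Cdkn1c (-0.56 ± 0.13) and Cdkn2c (-0.80 ± 0.12) also fell, as did Ccnd2 (-0.37 ± 0.098). The 2 that rose were Cdkn2a (2.10 ± 0.80, adjusted p = 0.0368) and Cdkn2d (0.35 ± 0.10, adjusted p = 0.00705), these and Ccnd2 being named after their values were seen. Cdkn2a had 54.0 ± 17.8 with TSA and 21.6 ± 17.2 with DMSO, the DMSO mean being under the signal minimum. It met the filter with TSA and not with DMSO, which favours a rise, so its call carries no weight as support. Cdkn1a, the CDK inhibitor p21, had 1781 ± 245 with TSA and 1535 ± 344 with DMSO (0.23 ± 0.21, adjusted p = 0.359), and Cdkn1b had 342 ± 43.3 and 406 ± 64.2 (-0.24 ± 0.13, adjusted p = 0.132). With LY294002, Ccnd3 rose (0.28 ± 0.079, adjusted p = 0.0415).

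**Figure D5:**
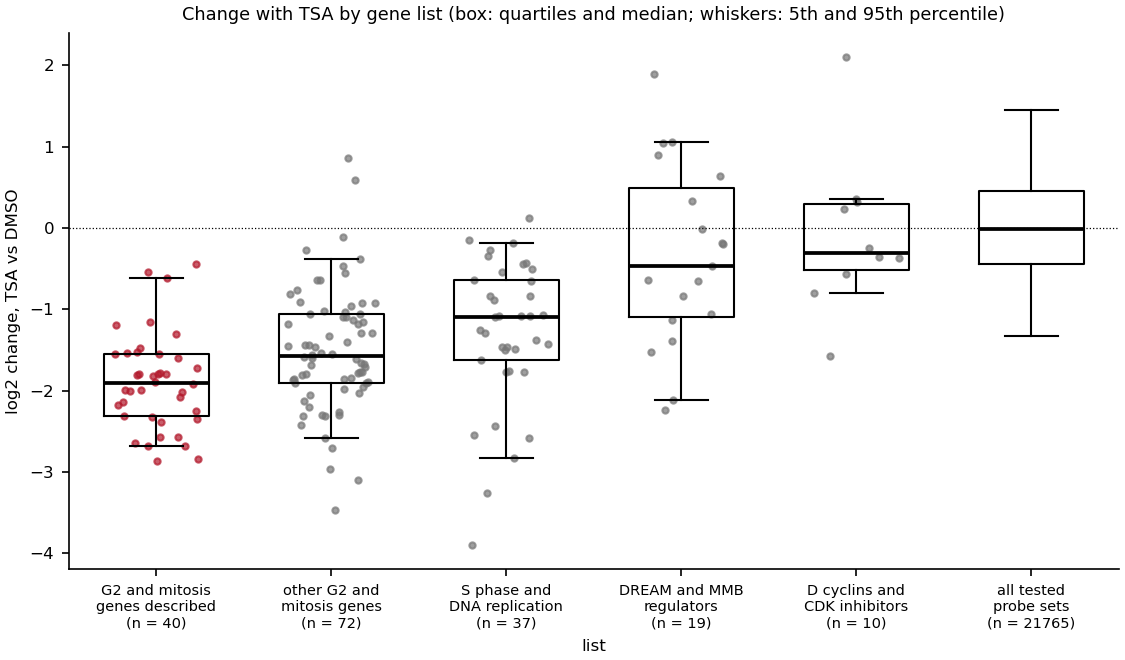
Log2 change with TSA against DMSO by gene list, with single genes as points, quartiles and median as a box and the 5th and 95th percentiles as whiskers. The 40 genes described have a median of -1.90, the further G2 and mitosis genes -1.58, S phase genes -1.09, and all 21765 tested probe sets -0.0128.

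Markers of cell types were read against the same background, 26.6% of all tested probe sets lower and 54.7% called in either direction with TSA. Of the 12 chondrocyte markers 11 were lower (median log2 change -2.08), and their summed signal was 14683 to 16752 with TSA and 27711 to 41697 with DMSO, while Col2a1 had 5634 ± 769 and 5700 ± 1580. Of 8 skeletal muscle markers 6 were lower, with a summed signal of 328 to 383 with TSA and 885 to 1989 with DMSO. All 3 osteoblast markers were lower (median log2 change -1.20), with a summed signal of 569 to 1902 with TSA and 2162 to 2432 with DMSO. Fibroblast markers had 2 higher and 3 lower of 8, near the background, with a summed signal of 13446 to 15418 with TSA and 14731 to 21060 with DMSO. Of 5 tested macrophage and leukocyte markers 4 were lower and 1 higher (median log2 change -0.84). The summed signal of all 10 was 568 to 673 with TSA and 682 to 828 with DMSO. The part of these marker shifts in the fall of the mitotic genes was not tested.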

How the data were processed

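Primary chondrocytes of 5 groups with 3 arrays each were compared. The authors deposited 1 table of MAS5 signal intensity per probe set, scaled so that the mean, with 2% trimmed at each end, is the same on every array. No detection calls were used, and the version of MAS5 is not given in the sources used here. The number of arrays limits the precision, and the series description calls them biological replicates. Of 45101 probe sets, 34958 had 1 gene symbol, 932 several and 9211 none listed, and 99.4% of those with 1 symbol matched a RefSeq gene ID. The 64 control probe sets were left out.

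The floor before taking log2 was a signal of 1, and 21765 probe sets with a group mean of 50 in at least 1 of 5 groups were kept. In R 4.3.3, limma 3.58.1 fitted group means over the whole set of arrays (empirical Bayes, variance trend). Two-sided p-values were corrected by Benjamini-Hochberg in each of 10 comparisons on its own. The code was tested on simulated data.

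The genes and lists were chosen with earlier results of these data known. Signals of single arrays are given for the 2 genes of each of 8 roles with the highest mean log2 signal, the 2 with the largest change past the threshold in each comparison with DMSO, and others beside these (Cdc25b, Racgap1, Aurka, and the genes called between kinase inhibitors) chosen after their values were seen. Of the other lists, up to 4 genes with the smallest p in each comparison with DMSO are named, with Mybl2, Lin9, Rbl1, Rbl2, E2f4, Cdkn1a and Cdkn1b.

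Replicate numbers were treated as pairing when arrays sharing a number deviated together, with r over 0.1 for each of the 3 numbers. This was so between LY294002 and DMSO (0.42, 0.16, 0.3), between UO126 and DMSO (0.42, 0.23, 0.22), between LY294002 and UO126 (0.34, 0.17, 0.22) and between TSA and SB202190 (0.14, 0.14, 0.19). Alternatives were other scalings, filters, floors and fits, the replicate block, each array left out, and averaging a gene's probe sets.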

Additional observations from a re-analysis of the deposited data

How the results depend on the processing

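The comparisons of TSA gave the same counts, within 1.5 times, under every alternative run, and each of the 40 genes kept its call against DMSO in every fit that tested it, with 40 called without any 1 of the 6 arrays. Without 1 array, 39 were called against LY294002, 39 against UO126 and 40 against SB202190, and without LY294002 array 1 Cdc25b (adjusted p = 0.0479) took the place of Racgap1 (0.0604). Where a gene's probe sets were averaged, 39 genes could be tested against DMSO and all 39 were lower. The calls among kinase inhibitors rest on few genes. Against DMSO, LY294002 had 1 gene lower, 2 with quantile normalization, a mean of 100 over all arrays or log2 of signal plus 16, 0 with median centring, no filter, no variance trend or only these 2 groups, and 0 to 1 without 1 array. UO126 had 1 lower, 0 with median centring, no filter or only 2 groups, and 0 to 1 without 1 array. SB202190 had 0, and 0 to 1 without 1 array. LY294002 against UO126 had 2 higher, 1 with only 2 groups or the mean of all probe sets, and 1 to 2 without 1 array. LY294002 against SB202190 had 0, and 0 to 1 without 1 array. UO126 against SB202190 had 4 lower, 0 with median centring, 2 with no filter or no variance trend, 1 with the mean of all probe sets, and 0 to 3 without 1 array. The cause of these shifts was not tested.

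With the replicate block 4 genes were called between LY294002 and DMSO, 5 between UO126 and DMSO and 4 between LY294002 and UO126, all of them paired, and the block changed no call of TSA against SB202190. In groups that fell short of the pairing rule it gave 1 for LY294002 against SB202190 (9.61% of all tested probe sets called) and 7 for UO126 against SB202190 (12%). Their r were 0.12, 0.084 and 0.21, and 0.12, 0.058 and 0.26. As all 15 arrays correlated best with an array of their own number, a pairing in these groups is not excluded. Median centring raised LY294002 arrays relative to DMSO by 0.124 over all probe sets, so that 85.7% of the calls were higher with LY294002 (57.2% as deposited). Higher calls made up 77.7% (54.3%) for LY294002 against UO126, 69.7% (50.5%) for LY294002 against SB202190 and 39.7% (50.7%) for TSA against LY294002. The mean level of the genes with LY294002 minus DMSO was then 0.0468, and that with TSA minus DMSO was -1.74 with the mean of all probe sets. Low signal may limit the size of the TSA fall in Cdc25c and Ncapg, whose TSA means lie under 50, which was not tested. The same may hold for genes close above 50, such as Espl1 (50.1), Aurkb (56.1), Kif11 (59.0), Ttk (59.3) and Kif20a (61.3). Of the 40 genes, 25 had a TSA mean of at least 100.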
